A study of Mus musculus with 21 samples.

Results

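The 34 genes described here encode the machinery of homologous recombination and of the Fanconi anaemia pathway, together with the kinases and adaptor that signal DNA breaks to it. They were taken by symbol from a table of 20900 genes, all 34 were found, and all 34 were among the 14666 genes with enough signal to be tested. The RNA came from E14 cells, a mouse embryonic stem cell line of the 129 strain, kept in serum medium with LIF and plated the day before the experiment. Treatment was with BMH-21 or with CX-5461, both small-molecule inhibitors of RNA polymerase I, each at 1 µM for 2, 4 or 8 h. Poly(A) RNA was sequenced in 3 replicates of each of these 6 groups and of a single group of untreated cells at 0 h. The 6 treated groups therefore share the same 3 control libraries, and a line grown in culture stands in for no tissue. No untreated cells were sampled at 2, 4 or 8 h. A change from control, or from 4 to 8 h, thus also spans that time in culture, and inhibitor and time cannot be told apart. Words such as lowered, fell or rose name a difference between groups. The labels do not say that replicates came from separate cultures, so the spread between libraries behind the p-values may be technical. That spread was pooled largely over genes, so a p-value is not a measure of the spread of its own gene alone.

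Homologous recombination repairs a broken chromosome by copying the intact sister. The MRN complex and its partners resect the broken ends to single strands, BRCA1 with BARD1 and PALB2 brings in BRCA2, and the coated strand then invades the sister with the help of RAD54. The Fanconi anaemia pathway starts from crosslinked DNA at stalled replication forks. A core complex of FANC proteins attaches ubiquitin to FANCD2 and FANCI, which opens the way to incision, bypass and then recombination. ATM and ATR are the apex kinases that signal breaks and stalled forks, CHK2 and CHK1 are their effector kinases, and MDC1 is the scaffold that spreads the signal on chromatin. Embryonic stem cells divide rapidly with a large share of cells in S phase, and these genes are known to be highly expressed in them.

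RefSeq promoters, each from 250 bases before to 50 bases after an annotated start on GRCm38.p6, were at hand for 26 of the 34 genes. An E2F-type sequence, searched on both strands as TTTCCCGC, TTTGCCGC, TTTCGCGC or TTTGGCGC, was found in 6 of the 26 (23.1%) and in 704 of 27025 genes with a promoter in the same table (2.6%). The 6 were Bard1, Brca2, Rad51c, Fancg, Chek2 and Mdc1. The sequence CCAAT, on either strand, was in 16 of the 26 (61.5%) and in 41.1% of all genes. The cell-cycle element TTTGAA or TTTAAA was in 3 of the 26 (11.5%) and in 30.6% of all genes. These matches describe letters in a window and say nothing about a factor bound there. The promoters of Bard1 (chr1:71102923-71103222, minus strand), Brca2 (chr5:150522371-150522670, plus strand), Rad51c (chr11:87404905-87405204, minus strand), Fancg (chr4:43010252-43010551, minus strand) and Chek2 (chr5:110839733-110840032, plus strand) are shown because they hold the E2F-type sequence and belong to genes that fell or, for Chek2, rose, and that of Fancf (chr7:51862218-51862517, minus strand) because it had the lowest change of any member at 2 h of either inhibitor on the deposited scale. Capitals mark E2F-type and CCAAT matches on either strand, and each sequence reads 5′ to 3′ on the strand of its gene.

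Bard1: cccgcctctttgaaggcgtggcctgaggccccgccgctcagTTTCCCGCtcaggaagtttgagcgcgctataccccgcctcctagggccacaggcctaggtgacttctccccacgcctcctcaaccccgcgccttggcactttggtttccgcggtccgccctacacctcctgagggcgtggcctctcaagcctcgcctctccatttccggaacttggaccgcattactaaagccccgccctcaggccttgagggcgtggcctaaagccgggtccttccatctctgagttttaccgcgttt
Brca2: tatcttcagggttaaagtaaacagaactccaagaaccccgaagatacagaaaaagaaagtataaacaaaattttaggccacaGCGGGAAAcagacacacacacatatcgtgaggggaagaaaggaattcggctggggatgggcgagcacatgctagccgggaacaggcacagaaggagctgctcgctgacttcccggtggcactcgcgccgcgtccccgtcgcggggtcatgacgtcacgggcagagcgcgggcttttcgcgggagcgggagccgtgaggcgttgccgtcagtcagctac
Rad51c: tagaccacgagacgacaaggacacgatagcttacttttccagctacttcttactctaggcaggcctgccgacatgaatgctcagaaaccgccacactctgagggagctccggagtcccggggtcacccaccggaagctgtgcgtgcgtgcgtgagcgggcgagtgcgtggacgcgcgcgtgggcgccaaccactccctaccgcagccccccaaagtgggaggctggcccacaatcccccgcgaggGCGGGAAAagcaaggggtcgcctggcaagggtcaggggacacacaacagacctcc
Fancg: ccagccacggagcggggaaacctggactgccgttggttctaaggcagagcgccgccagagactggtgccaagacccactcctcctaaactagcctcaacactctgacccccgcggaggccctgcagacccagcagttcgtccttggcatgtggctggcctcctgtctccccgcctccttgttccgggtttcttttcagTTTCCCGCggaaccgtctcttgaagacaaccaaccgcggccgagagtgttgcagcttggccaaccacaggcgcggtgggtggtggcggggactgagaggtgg
Chek2: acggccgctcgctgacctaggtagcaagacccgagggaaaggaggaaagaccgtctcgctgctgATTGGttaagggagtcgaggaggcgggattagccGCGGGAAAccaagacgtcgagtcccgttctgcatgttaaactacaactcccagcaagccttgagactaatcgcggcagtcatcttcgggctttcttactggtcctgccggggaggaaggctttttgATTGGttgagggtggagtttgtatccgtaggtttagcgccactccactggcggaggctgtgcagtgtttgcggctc
Fancf: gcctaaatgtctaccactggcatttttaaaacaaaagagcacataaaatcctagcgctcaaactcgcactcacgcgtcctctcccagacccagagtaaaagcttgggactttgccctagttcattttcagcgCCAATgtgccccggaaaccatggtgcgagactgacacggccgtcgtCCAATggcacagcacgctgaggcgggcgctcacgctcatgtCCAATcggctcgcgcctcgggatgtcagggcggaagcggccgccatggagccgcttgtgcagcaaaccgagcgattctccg

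The E2F-type match starts at -209 from the start of Bard1, -168 for Brca2, -5 for Rad51c, -52 for Fancg and -152 for Chek2, and the Fancf promoter has 3 CCAAT matches, at -118, -72 and -31. Chek2 also carries CCAAT on the opposite strand, at -186 and -26. The promoter of Mdc1, which has an E2F-type match at -16 and also fell at 4 h of both inhibitors, is not shown. Nor is another promoter of Rad51c (chr11:87404457-87404756, minus strand), which has an E2F-type match at 12.

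Each library held between 46604397 and 62812641 reads, of which 85257 to 118308 belonged to the 34 genes, and replicate libraries differed by 2.58 to 26.0 times counting noise (chi-square per degree of freedom over genes). The deposited values are log2 of normalized reads, and the scale itself bears on every direction. The library factors behind them ran from 0.832 to 1.375. Setting each library to the same median shifted all fold changes of a comparison alike. The deposited fold change minus that after this centring lay between -0.43 and 0.37 over the comparisons. A gene is therefore said here to rise or fall only where limma called it at a Benjamini-Hochberg adjusted p under 0.05 in the same direction under 4 scalings, namely the deposited one, centring on the library median, median-ratio factors and quantile normalization. This rule was chosen after the data had been seen. The position of libraries above, below or among the control libraries is given on the deposited scale throughout. The share of all genes with such a position is not given, so these positions describe single genes and do not set the members apart. Whether a call held or was lost without a library is also given on that scale, unless the rule of 4 scalings is named. The 3 p53 target genes used as a check on treatment, Cdkn1a, Mdm2 and Ccng1, rose in all 6 treated groups, and their summed level went from 366.2 to 426.9 in control to between 1181 and 2727 in treated libraries. The stem cell label was checked with 10 markers, all tested, whose summed level ran from 6282 to 7172 in control, 5135 to 5702, 3609 to 4179 and 3012 to 3249 after 2, 4 and 8 h of BMH-21, and 4637 to 5469, 3608 to 4335 and 5716 to 6155 after CX-5461. Of 8 fibroblast markers 4 were tested, and 2 of them, Col1a1 and Pdgfra, rose in all 6 comparisons with control, Col1a1 from a mean log2 value of 3.15 in control to 5.01 at 8 h of BMH-21 and 4.38 at 8 h of CX-5461, and Pdgfra from 1.15 to 3.15 and 2.07. Thy1 went the other way, from a mean of 4.48 in control to 3.81 and 3.07 at 4 and 8 h of BMH-21 and 3.75 at 4 h of CX-5461, and fell in these 3 comparisons. Col1a2, the remaining tested marker, met the rule in none of the 6. Lum and Postn had between 0 and 3 reads in the control libraries, and the summed level of the 8 was 32.5 to 36.9 in control, at most 66.3 in BMH-21 and at most 48.6 in CX-5461. The part of these shifts in the results was not tested, and in bulk RNA fewer cells of a kind and less RNA per cell cannot be told apart.

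BMH-21 lowered about as many of these genes at 4 h as at 8 h. At 2 h, 6 of the 34 were called on the deposited scale, against 19.7% of all genes tested, and under all 4 scalings 6 were lower, against 10.9% of all genes. Under the same rule 0 members were higher at 2 h (8.25% of all genes), and limma gave 0 higher at an unadjusted p under 0.05 too. At 4 h, 25 were called on the deposited scale (67% of all genes), 18 fell (36.7% of all genes) and 3 rose (21%). At 8 h, 30 were called (81.5%), 17 fell (40.4%) and 3 rose (23%). The median member stood at -0.17, -0.34 and -0.57 on the deposited log2 scale at 2, 4 and 8 h, where the median of all genes stood at -0.07, -0.21 and -0.40.

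Under the rule of 4 scalings CX-5461 lowered a similar number at 4 h, but few at 8 h, where the count depends on the scaling. At 2 h, 13 of the 34 were called on the deposited scale (27.9% of all genes), 7 were lower under all 4 scalings (12.6%) and 0 higher (7.35%), with 0 higher in limma at an unadjusted p under 0.05. At 4 h, 25 were called (70.9%), 16 fell (33.1%) and 3 rose (18.7%). At 8 h, 9 were called (49.4%), 3 fell (13.6%) and 4 rose (22.9%), and on the other 3 scalings 23 to 26 were called. The median member stood at -0.23, -0.36 and -0.02 on the deposited scale, beside -0.18, -0.28 and 0.11 for all genes. After centring, the medians at 8 h were -0.24 for the members and -0.11 for all genes. Among genes whose range over the scalings is given below, Bard1, Palb2, Rad54l, Exo1, Atm and Fancf were negative at 8 h. Each of these was called under 3 of the 4 scalings, and Atr was positive and so called. The few falls at 8 h thus do not show that the other members were back at control level. The share of members lower was above that of all genes at 2 and 4 h of both inhibitors and at 8 h of BMH-21, and the share higher was below it in all 6 comparisons with control. Whether these shares differ by more than chance was not tested.

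**Figure D1:**
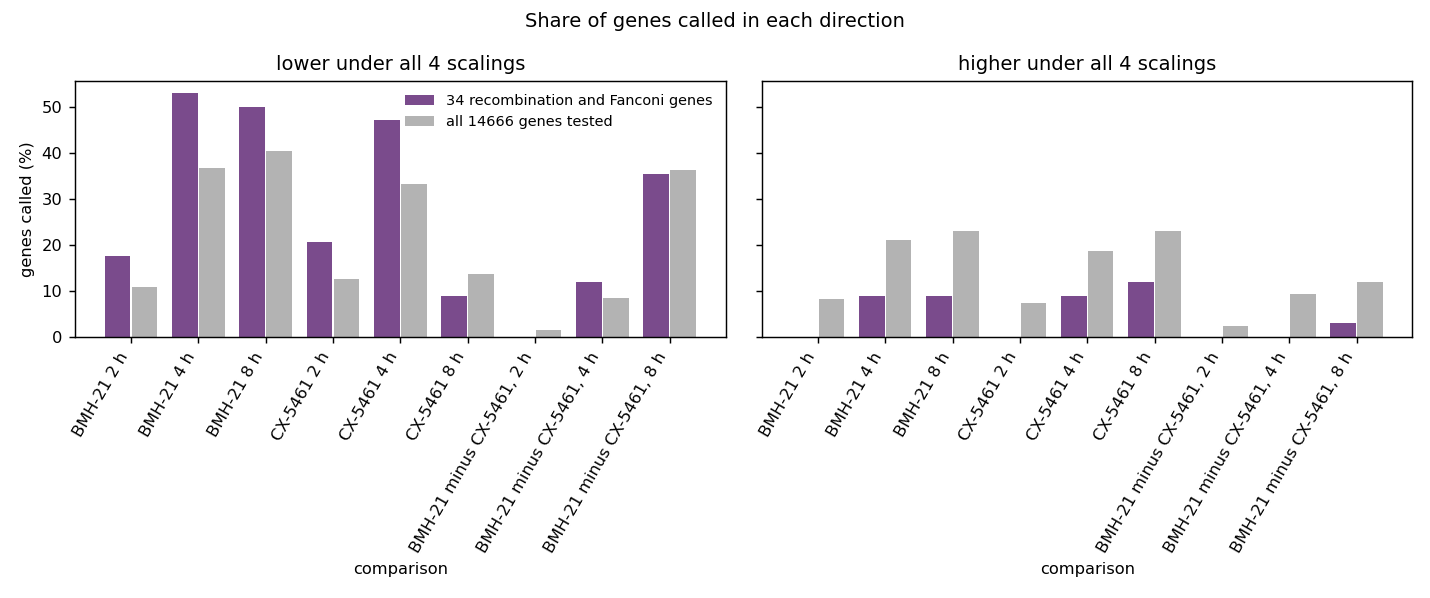
Percentage of genes called higher or lower under all 4 scalings (y axis) in each comparison (x axis), for the 34 recombination and Fanconi genes (purple) and for all 14666 genes tested (grey). The members' share of lower calls is 52.9% at 4 h and 50% at 8 h of BMH-21, 47.1% at 4 h and 8.82% at 8 h of CX-5461.

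**Figure D2:**
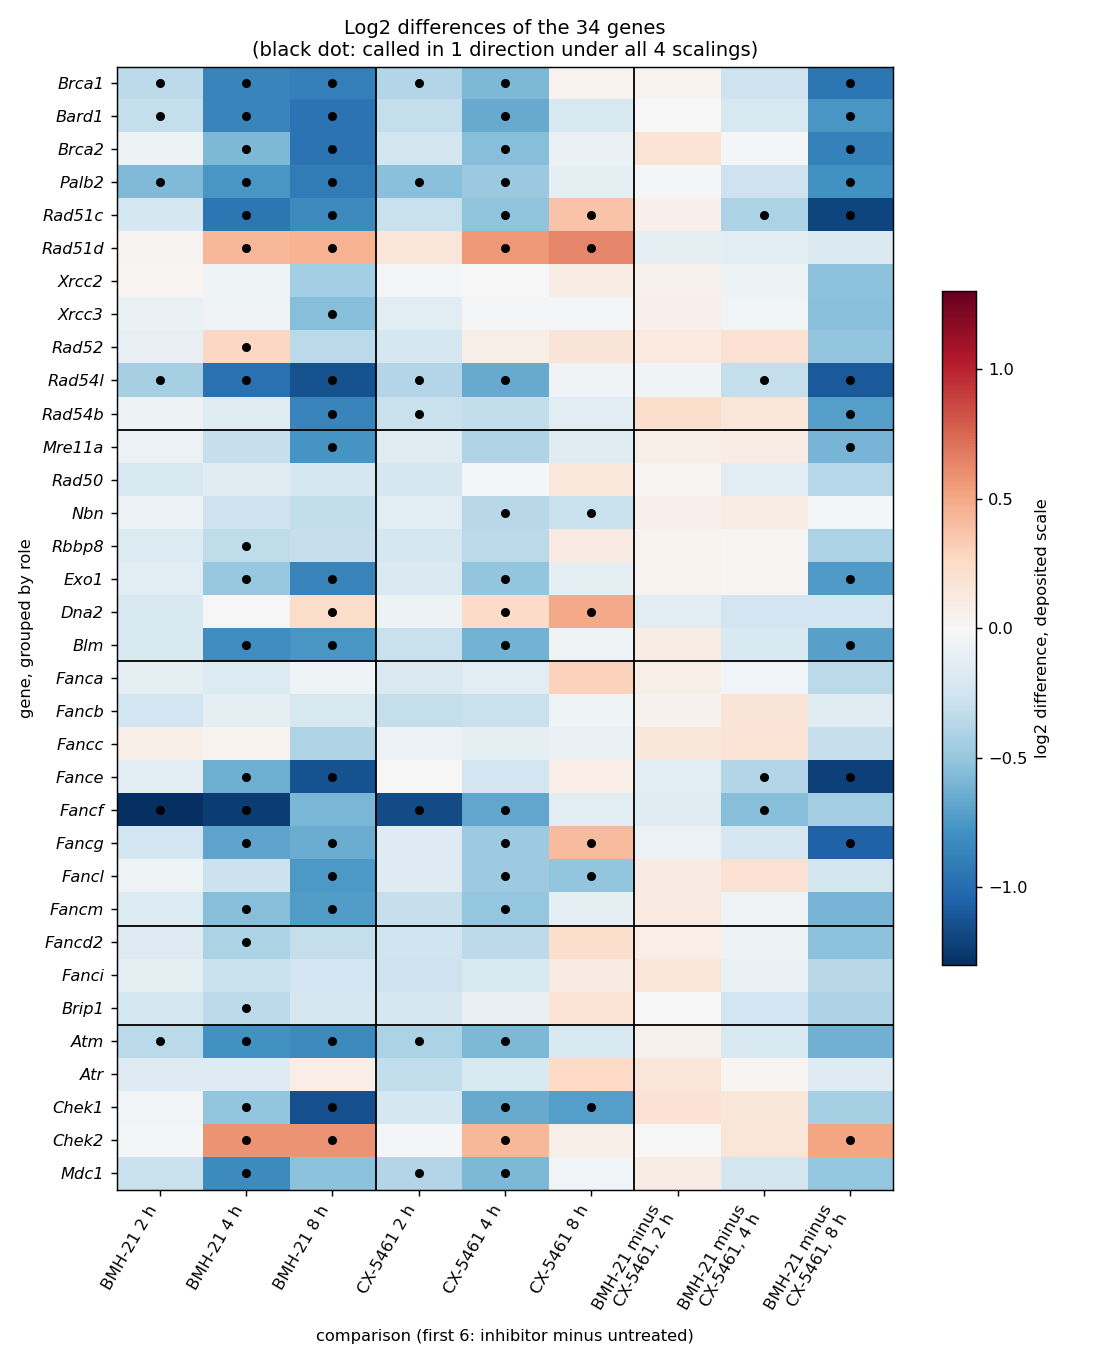
Log2 fold change of each of the 34 genes on the deposited scale, in rows grouped by role, for the comparisons named along the x axis; colour gives the sign and size of the change and a black dot marks a call under all 4 scalings. The columns for 8 h of CX-5461 are pale beside those for 8 h of BMH-21, with Chek1 low in both (-1.14 with BMH-21 and -0.72 with CX-5461).

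Among the 11 genes of strand exchange and its mediators, 4 fell at 2 h, 6 at 4 h and 8 at 8 h of BMH-21 (36.4%, 54.5% and 72.7%, against 10.9%, 36.7% and 40.4% of all genes), and 2 rose at 4 h and 1 at 8 h (18.2% and 9.09%, against 21% and 23%). With CX-5461 4 fell at 2 h and 6 at 4 h (36.4% and 54.5%, against 12.6% and 33.1%), and 1 rose at 4 h and 2 at 8 h (9.09% and 18.2%, against 18.7% and 22.9%). Brca1 read 7.74, 7.78 and 7.57 in the control libraries. BMH-21 libraries read 7.17, 7.51 and 7.39 for Brca1 at 2 h, 7.05, 6.80 and 6.68 at 4 h and 6.995, 6.52 and 6.90 at 8 h. CX-5461 libraries read 7.39, 7.29 and 7.26 for Brca1 at 2 h, 6.95, 7.29 and 7.10 at 4 h and 7.80, 7.74 and 7.70 at 8 h. Brca1 thus lay below every control library at 2, 4 and 8 h of BMH-21. With CX-5461, Brca1 lay below every control library at 2 and 4 h and overlapping the controls at 8 h. Brca1, the ubiquitin ligase and scaffold that directs breaks towards recombination, fell at 4 h of BMH-21, with a log2 change of -0.85 (SE 0.11, -0.85 to -0.60 over the 4 scalings, limma adjusted p = 1.0e-11) and at 8 h of -0.89 (SE 0.11, -0.89 to -0.37 over the 4 scalings, limma adjusted p = 9.0e-13). With CX-5461 Brca1 was lower, with a log2 change of -0.38 (-0.38 to -0.20 over the 4 scalings) at 2 h and -0.58 (-0.58 to -0.24 over the 4 scalings) at 4 h. At 8 h its value was 0.05 (-0.17 to 0.16 over the 4 scalings, called under 2 of them), with both directions among these. Bard1 read 5.76, 5.81 and 5.63 in the control libraries. BMH-21 libraries read 5.28, 5.60 and 5.39 for Bard1 at 2 h, 5.03, 4.88 and 4.72 at 4 h and 4.97, 4.45 and 4.89 at 8 h. CX-5461 libraries read 5.54, 5.41 and 5.34 for Bard1 at 2 h, 4.90, 5.32 and 5.03 at 4 h and 5.61, 5.41 and 5.58 at 8 h. Bard1 thus lay below every control library at 2, 4 and 8 h of BMH-21. With CX-5461, Bard1 lay below every control library at 2, 4 and 8 h. Bard1, the obligate partner of BRCA1, fell, with a log2 change of -0.96 (SE 0.12, -0.96 to -0.61 over the 4 scalings, limma adjusted p = 3.4e-13) at 8 h of BMH-21 and of -0.65 (-0.65 to -0.40 over the 4 scalings) at 4 h of CX-5461, and stood at -0.20 (-0.42 to -0.20 over the 4 scalings, called under 3 of them) at 8 h of CX-5461. Brca2 read 6.84, 6.88 and 6.71 in the control libraries. BMH-21 libraries read 6.51, 6.89 and 6.83 for Brca2 at 2 h, 6.38, 6.24 and 6.05 at 4 h and 6.10, 5.44 and 5.99 at 8 h. CX-5461 libraries read 6.63, 6.62 and 6.44 for Brca2 at 2 h, 5.99, 6.48 and 6.28 at 4 h and 6.71, 6.77 and 6.69 at 8 h. Brca2 thus lay below every control library at 4 and 8 h and overlapping the controls at 2 h of BMH-21. With CX-5461, Brca2 lay below every control library at 2 and 4 h and overlapping the controls at 8 h. Brca2, a mediator of strand exchange that acts on resected single strands, fell, with a log2 change of -0.96 (SE 0.12, -0.96 to -0.54 over the 4 scalings, limma adjusted p = 4.0e-13) at 8 h of BMH-21. With CX-5461 it fell, with a log2 change of -0.56 (-0.56 to -0.22 over the 4 scalings) at 4 h and stood at -0.08 (-0.30 to -0.05 over the 4 scalings, called under 2 of them) at 8 h.

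Palb2 read 5.31, 5.38 and 5.12 in the control libraries. BMH-21 libraries read 4.52, 4.87 and 4.69 for Palb2 at 2 h, 4.69, 4.42 and 4.44 at 4 h and 4.45, 4.22 and 4.41 at 8 h. CX-5461 libraries read 4.87, 4.66 and 4.64 for Palb2 at 2 h, 4.64, 4.98 and 4.74 at 4 h and 5.21, 5.14 and 5.10 at 8 h. Palb2 thus lay below every control library at 2, 4 and 8 h of BMH-21. With CX-5461, Palb2 lay below every control library at 2 and 4 h and overlapping the controls at 8 h. Palb2, which bridges BRCA1 and BRCA2 and was singled out after its values were seen, fell at every time of BMH-21, with a log2 change of -0.58 (SE 0.11, -0.58 to -0.48 over the 4 scalings, limma adjusted p = 2.6e-05) at 2 h and -0.91 (-0.91 to -0.55 over the 4 scalings) at 8 h. CX-5461 lowered Palb2, with a log2 change of -0.55 (SE 0.11, -0.55 to -0.36 over the 4 scalings, limma adjusted p = 6.6e-05) at 2 h and -0.48 (-0.48 to -0.23 over the 4 scalings) at 4 h, and at 8 h it stood at -0.12 (-0.34 to -0.12 over the 4 scalings, called under 3 of them). Rad54l read 5.86, 5.98 and 5.69 in the control libraries. BMH-21 libraries read 5.23, 5.60 and 5.42 for Rad54l at 2 h, 5.06, 4.81 and 4.75 at 4 h and 4.79, 4.55 and 4.80 at 8 h. CX-5461 libraries read 5.51, 5.41 and 5.47 for Rad54l at 2 h, 5.01, 5.36 and 5.19 at 4 h and 5.82, 5.78 and 5.80 at 8 h. Rad54l thus lay below every control library at 2, 4 and 8 h of BMH-21. With CX-5461, Rad54l lay below every control library at 2 and 4 h and overlapping the controls at 8 h. Rad54l, the motor protein that drives strand invasion, fell, with a log2 change of -0.43 (SE 0.11, -0.43 to -0.34 over the 4 scalings, limma adjusted p = 0.002) at 2 h and -1.13 (SE 0.11, -1.13 to -0.78 over the 4 scalings, limma adjusted p = 2.3e-17) at 8 h of BMH-21, the largest fall of the 11 at 8 h on the deposited scale. The fall of Rad54l with CX-5461 was -0.38 (-0.38 to -0.20 over the 4 scalings) at 2 h, a call lost without control replicate 2, and -0.66 (-0.66 to -0.41 over the 4 scalings) at 4 h, and its 8 h value was -0.04 (-0.26 to -0.04 over the 4 scalings, called under 3 of them). At 2 h of BMH-21 the calls of Brca1 (-0.34, -0.34 to -0.26 over the 4 scalings) and Bard1 (-0.31, -0.31 to -0.23 over the 4 scalings) were each lost without BMH-21 replicate 1 or without control replicate 1 or 2, and that of Bard1 also without BMH-21 replicate 3.

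Rad51c read 4.88, 4.82 and 4.86 in the control libraries. BMH-21 libraries read 4.56, 4.68 and 4.63 for Rad51c at 2 h, 4.12, 3.76 and 3.86 at 4 h and 4.15, 3.88 and 4.05 at 8 h. CX-5461 libraries read 4.82, 4.37 and 4.49 for Rad51c at 2 h, 4.20, 4.48 and 4.30 at 4 h and 5.27, 5.15 and 5.25 at 8 h. Rad51c thus lay below every control library at 2, 4 and 8 h of BMH-21. With CX-5461, Rad51c lay below every control library at 2 and 4 h and above every control library at 8 h. Rad51c, a subunit of the complexes that assist strand exchange, fell, with a log2 change of -0.94 (SE 0.11, -0.94 to -0.76 over the 4 scalings, limma adjusted p = 1.4e-12) at 4 h and -0.82 (-0.82 to -0.47 over the 4 scalings) at 8 h of BMH-21. CX-5461 lowered Rad51c, with a log2 change of -0.53 (-0.53 to -0.28 over the 4 scalings) at 4 h, and at 8 h the gene rose above control by 0.37 (SE 0.11, 0.15 to 0.37 over the 4 scalings, limma adjusted p = 0.0044). Rad51d read 5.26, 5.35 and 5.04 in the control libraries. BMH-21 libraries read 5.25, 5.31 and 5.19 for Rad51d at 2 h, 5.82, 5.48 and 5.65 at 4 h and 5.77, 5.55 and 5.69 at 8 h. CX-5461 libraries read 5.49, 5.31 and 5.31 for Rad51d at 2 h, 5.71, 5.88 and 5.75 at 4 h and 5.91, 5.79 and 5.87 at 8 h. Rad51d thus lay above every control library at 4 and 8 h and overlapping the controls at 2 h of BMH-21. With CX-5461, Rad51d lay above every control library at 4 and 8 h and overlapping the controls at 2 h. Rad51d, a further subunit of these complexes, rose at 4 and 8 h of both inhibitors, by 0.45 (SE 0.11, 0.45 to 0.81 over the 4 scalings, limma adjusted p = 1.0e-04) at 8 h of BMH-21 and 0.64 (SE 0.11, 0.42 to 0.64 over the 4 scalings, limma adjusted p = 2.8e-07) at 8 h of CX-5461. Of the other strand-exchange genes, Rad54b and Xrcc3 fell at 8 h of BMH-21, with log2 changes of -0.85 (-0.85 to -0.50 over the 4 scalings) and -0.56 (-0.56 to -0.20 over the 4 scalings). Xrcc2 met the rule in none of the 6 comparisons with control, and stood at -0.44 at 8 h of BMH-21 (-0.23 after centring) and 0.10 at 8 h of CX-5461 (-0.12 after centring). Rad54b shares 2068 of its 5782 exonic bases with Fsbp on the same strand, so its reads cannot all be assigned to it. Rad52 was 0.27 (0.27 to 0.45 over the 4 scalings) at 4 h of BMH-21, a call lost without BMH-21 replicate 1 or control replicate 1 or 3. Rad54b at 2 h of CX-5461 (-0.29, -0.29 to -0.11 over the 4 scalings) was lost without control replicate 1 or 2, or CX-5461 replicate 2 or 3.

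**Figure D3:**
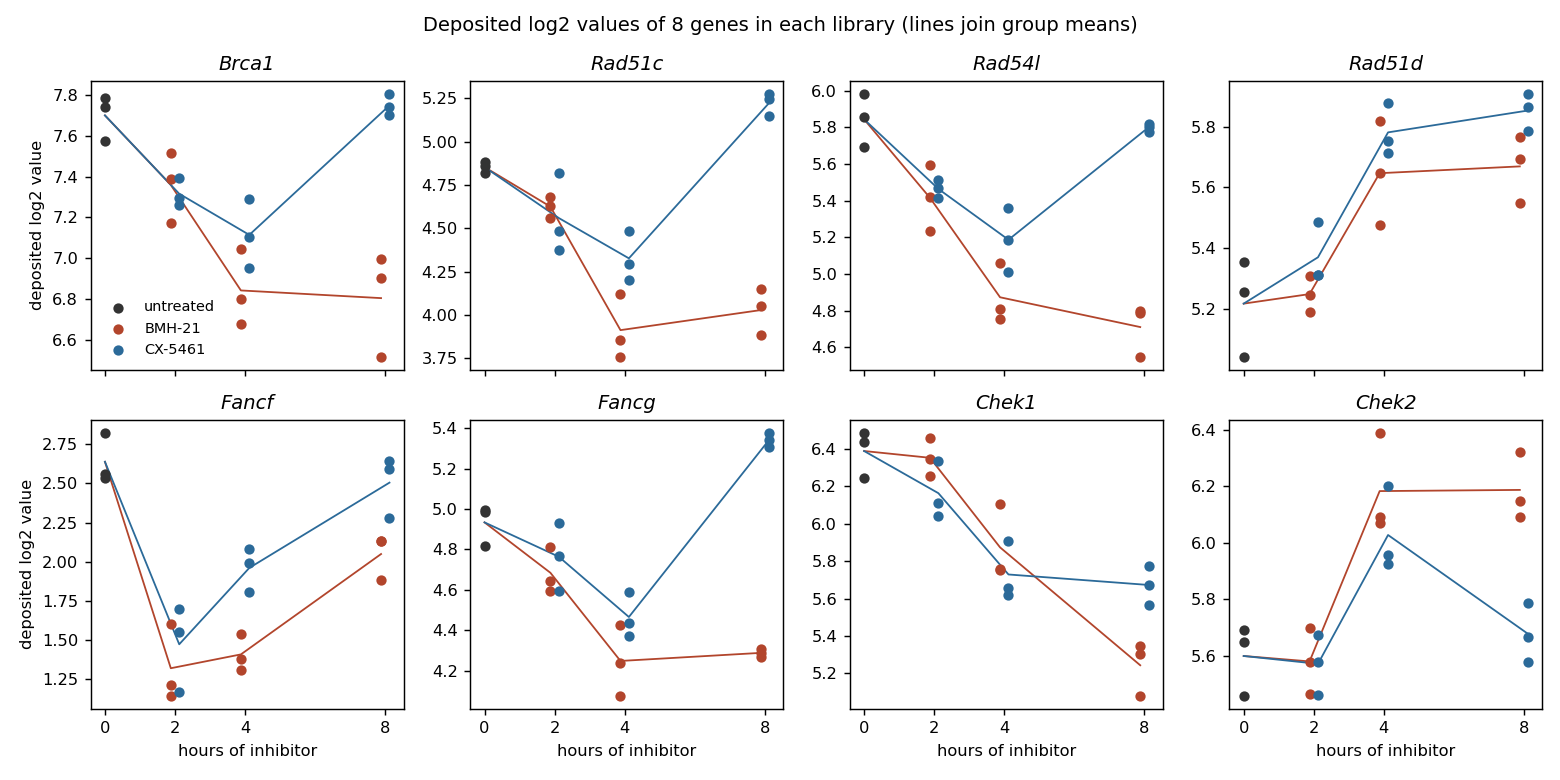
Deposited log2 value of single libraries (points) and group means (lines) against hours of treatment for selected genes, with the 0 h controls shared by both inhibitors. Chek1 ends low with both inhibitors (at 8 h 5.08 to 5.35 under BMH-21, 5.57 to 5.78 under CX-5461), whereas Rad51c at 8 h reads 3.88 to 4.15 under BMH-21, but 5.15 to 5.27 under CX-5461.

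Of the 7 genes that process broken ends and unwind recombination intermediates, 3 fell at 4 h and 3 at 8 h of BMH-21, and 1 rose at 8 h (14.3%, against 23% of all genes). Each 3 is 42.9% of the list, near the 36.7% and 40.4% of all genes. With CX-5461 3 fell (33.1% of all genes) and 1 rose (18.7%) at 4 h, and 1 fell (13.6%) and 1 rose (22.9%) at 8 h. Each 1 is 14.3% of the list. Exo1 read 6.97, 6.997 and 6.78 in the control libraries. BMH-21 libraries read 6.65, 6.90 and 6.78 for Exo1 at 2 h, 6.61, 6.32 and 6.34 at 4 h and 6.15, 5.91 and 6.12 at 8 h. CX-5461 libraries read 6.91, 6.62 and 6.67 for Exo1 at 2 h, 6.28, 6.60 and 6.33 at 4 h and 6.81, 6.78 and 6.79 at 8 h. Exo1 thus lay below every control library at 4 and 8 h and overlapping the controls at 2 h of BMH-21. With CX-5461, Exo1 lay below every control library at 4 h and overlapping the controls at 2 and 8 h. Exo1, the exonuclease of long-range resection, fell, with a log2 change of -0.86 (SE 0.11, -0.86 to -0.41 over the 4 scalings, limma adjusted p = 4.0e-12) at 8 h of BMH-21 and of -0.51 (-0.51 to -0.18 over the 4 scalings) at 4 h of CX-5461, and stood at -0.12 (-0.34 to -0.08 over the 4 scalings, called under 3 of them) at 8 h of CX-5461. Blm read 6.82, 6.85 and 6.66 in the control libraries. BMH-21 libraries read 6.42, 6.70 and 6.64 for Blm at 2 h, 6.21, 5.92 and 5.79 at 4 h and 6.15, 5.76 and 6.16 at 8 h. CX-5461 libraries read 6.59, 6.45 and 6.44 for Blm at 2 h, 6.02, 6.32 and 6.17 at 4 h and 6.76, 6.71 and 6.72 at 8 h. Blm thus lay below every control library at 4 and 8 h and overlapping the controls at 2 h of BMH-21. With CX-5461, Blm lay below every control library at 2 and 4 h and overlapping the controls at 8 h. Blm, the helicase that takes part in resection and dissolves crossed strands, fell, with a log2 change of -0.81 (SE 0.11, -0.81 to -0.57 over the 4 scalings, limma adjusted p = 1.3e-10) at 4 h and -0.76 (-0.76 to -0.32 over the 4 scalings) at 8 h of BMH-21, and of -0.61 (-0.61 to -0.28 over the 4 scalings) at 4 h of CX-5461. Blm at 8 h of CX-5461 stood at -0.05 (-0.26 to -0.01 over the 4 scalings, called under 2 of them). Dna2 read 6.16, 6.21 and 5.97 in the control libraries. BMH-21 libraries read 5.76, 6.03 and 5.93 for Dna2 at 2 h, 6.26, 6.02 and 6.05 at 4 h and 6.41, 6.17 and 6.49 at 8 h. CX-5461 libraries read 6.11, 6.02 and 6.00 for Dna2 at 2 h, 6.23, 6.52 and 6.33 at 4 h and 6.63, 6.55 and 6.62 at 8 h. Dna2 thus lay overlapping the controls at 2, 4 and 8 h of BMH-21. With CX-5461, Dna2 lay above every control library at 4 and 8 h and overlapping the controls at 2 h. Dna2, the nuclease of the parallel resection route, rose by 0.49 (SE 0.11, 0.27 to 0.49 over the 4 scalings, limma adjusted p = 6.0e-05) at 8 h of CX-5461. Its calls at 8 h of BMH-21 (0.24, 0.24 to 0.69 over the 4 scalings) and at 4 h of CX-5461 (0.25, 0.25 to 0.54 over the 4 scalings) were lost without control replicate 3 and without either of 2 treated libraries, replicates 1 and 3 of BMH-21 or replicates 2 and 3 of CX-5461, the CX-5461 call also without control replicate 1.

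Rbbp8 read 5.55, 5.52 and 5.24 in the control libraries. BMH-21 libraries read 5.13, 5.33 and 5.30 for Rbbp8 at 2 h, 5.34, 5.02 and 4.96 at 4 h and 5.24, 5.00 and 5.19 at 8 h. CX-5461 libraries read 5.36, 5.06 and 5.20 for Rbbp8 at 2 h, 4.99, 5.20 and 5.06 at 4 h and 5.59, 5.60 and 5.47 at 8 h. Rbbp8 thus lay overlapping the controls at 2, 4 and 8 h of BMH-21. With CX-5461, Rbbp8 lay below every control library at 4 h and overlapping the controls at 2 and 8 h. Rbbp8, which encodes CtIP, the starter of resection, was lower, with a log2 change of -0.33 (-0.33 to -0.14 over the 4 scalings) at 4 h of BMH-21, a call lost without BMH-21 replicate 3 or control replicate 1. At 8 h its BMH-21 value of -0.29 turned to 0.06 under median-ratio factors, and its CX-5461 value was 0.12 (-0.10 to 0.12 over the 4 scalings, called under none of them). Nbn read 5.70, 5.77 and 5.45 in the control libraries. BMH-21 libraries read 5.45, 5.72 and 5.51 for Nbn at 2 h, 5.56, 5.31 and 5.24 at 4 h and 5.39, 5.14 and 5.42 at 8 h. CX-5461 libraries read 5.58, 5.40 and 5.48 for Nbn at 2 h, 5.16, 5.45 and 5.21 at 4 h and 5.37, 5.35 and 5.31 at 8 h. Nbn thus lay below every control library at 8 h and overlapping the controls at 2 and 4 h of BMH-21. With CX-5461, Nbn lay below every control library at 8 h and overlapping the controls at 2 and 4 h. Nbn, the regulatory subunit of the MRN complex, fell, with a log2 change of -0.36 (-0.36 to -0.11 over the 4 scalings) at 4 h of CX-5461. Its value at 8 h of CX-5461 was -0.29 (SE 0.11, -0.51 to -0.29 over the 4 scalings, limma adjusted p = 0.021), a call lost without control replicate 1 or 2 or CX-5461 replicate 3. The nuclease subunit Mre11a fell, with a log2 change of -0.77 (SE 0.11, -0.77 to -0.35 over the 4 scalings, limma adjusted p = 3.1e-10) at 8 h of BMH-21, whereas Rad50, the third subunit, which met the rule in none of the 6 comparisons with control, was at -0.23 on the deposited scale and -0.02 after centring.

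Of the 8 Fanconi core complex genes, 1 (Fancf) fell at 2 h and 4 at 4 h of each inhibitor, which is 12.5% and 50% beside 10.9% and 36.7% of all genes with BMH-21, and 12.6% and 33.1% with the other inhibitor. At 8 h 4 fell with BMH-21 (40.4% of all genes), while 1 fell (13.6%) and 1 rose (22.9%) with CX-5461, each 12.5% of the list. Fancf read 2.56, 2.82 and 2.53 in the control libraries. BMH-21 libraries read 1.14, 1.60 and 1.21 for Fancf at 2 h, 1.54, 1.31 and 1.38 at 4 h and 2.13, 1.88 and 2.13 at 8 h. CX-5461 libraries read 1.70, 1.17 and 1.55 for Fancf at 2 h, 1.99, 2.08 and 1.80 at 4 h and 2.64, 2.28 and 2.60 at 8 h. Fancf thus lay below every control library at 2, 4 and 8 h of BMH-21. With CX-5461, Fancf lay below every control library at 2 and 4 h and overlapping the controls at 8 h. Fancf, an adaptor that holds the core complex together and was singled out after its values were seen, fell at 2 h, with a log2 change of -1.32 (SE 0.15, -1.32 to -1.23 over the 4 scalings, limma adjusted p = 1.1e-12) with BMH-21 and of -1.17 (SE 0.15, -1.17 to -0.98 over the 4 scalings, limma adjusted p = 1.8e-10) with CX-5461. These were the largest 2 h changes among the 34 genes. By 8 h Fancf stood at -0.59 (-0.73 to -0.23 over the 4 scalings) with BMH-21, where 3 of the 4 scalings called it, and at -0.13 (-0.61 to -0.13 over the 4 scalings, called under 3 of them) with CX-5461. Fancf is a short gene in a single exonic block (chr7:51860577-51862267, minus strand, 1.7 kb) and gave 274 to 321 reads in the control libraries. It overlaps Gas2 on the other strand over 253 bases, and the kit keeps the strand but the counting is not stated to use it, so reads of the pair may not be separated; the same holds for the other overlapping genes named here. Fance read 5.04, 5.01 and 5.03 in the control libraries. BMH-21 libraries read 4.86, 4.95 and 4.87 for Fance at 2 h, 4.42, 4.25 and 4.50 at 4 h and 3.92, 3.88 and 3.89 at 8 h. CX-5461 libraries read 5.14, 4.97 and 5.00 for Fance at 2 h, 4.68, 4.91 and 4.73 at 4 h and 5.19, 5.06 and 5.10 at 8 h. Fance thus lay below every control library at 2, 4 and 8 h of BMH-21. With CX-5461, Fance lay below every control library at 4 h, above every control library at 8 h and overlapping the controls at 2 h. Fance, which carries FANCD2 to the core complex, fell, with a log2 change of -1.13 (SE 0.11, -1.13 to -0.77 over the 4 scalings, limma adjusted p = 8.7e-18) at 8 h of BMH-21, and its CX-5461 value at that time was 0.09 (-0.13 to 0.09 over the 4 scalings, called under none of them), so that its place above the controls holds on the deposited scale and turns with scaling.

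Fancg read 5.00, 4.98 and 4.82 in the control libraries. BMH-21 libraries read 4.59, 4.81 and 4.65 for Fancg at 2 h, 4.43, 4.08 and 4.24 at 4 h and 4.31, 4.27 and 4.29 at 8 h. CX-5461 libraries read 4.93, 4.59 and 4.77 for Fancg at 2 h, 4.37, 4.59 and 4.44 at 4 h and 5.34, 5.31 and 5.37 at 8 h. Fancg thus lay below every control library at 2, 4 and 8 h of BMH-21. With CX-5461, Fancg lay below every control library at 4 h, above every control library at 8 h and overlapping the controls at 2 h. Fancg, a scaffold subunit, fell, with a log2 change of -0.69 (-0.69 to -0.50 over the 4 scalings) at 4 h and -0.65 (SE 0.11, -0.65 to -0.29 over the 4 scalings, limma adjusted p = 1.2e-07) at 8 h of BMH-21. CX-5461 lowered Fancg, with a log2 change of -0.47 (-0.47 to -0.22 over the 4 scalings) at 4 h, and at 8 h Fancg rose above control by 0.41 (SE 0.11, 0.19 to 0.41 over the 4 scalings, limma adjusted p = 0.0012). Fancl read 5.71, 5.71 and 5.37 in the control libraries. BMH-21 libraries read 5.48, 5.58 and 5.55 for Fancl at 2 h, 5.52, 5.19 and 5.25 at 4 h and 4.89, 4.81 and 4.83 at 8 h. CX-5461 libraries read 5.55, 5.27 and 5.46 for Fancl at 2 h, 4.99, 5.25 and 5.12 at 4 h and 5.18, 5.10 and 4.97 at 8 h. Fancl thus lay below every control library at 8 h and overlapping the controls at 2 and 4 h of BMH-21. With CX-5461, Fancl lay below every control library at 4 and 8 h and overlapping the controls at 2 h. Fancl, the ubiquitin ligase of the complex, fell, with a log2 change of -0.75 (SE 0.11, -0.75 to -0.39 over the 4 scalings, limma adjusted p = 1.3e-09) at 8 h of BMH-21 and of -0.51 (SE 0.11, -0.73 to -0.51 over the 4 scalings, limma adjusted p = 4.3e-05) at 8 h of CX-5461, and shares 462 exonic bases with Vrk2 on the other strand. Fancm, the translocase that recognises the stalled fork, fell, with a log2 change of -0.73 (-0.73 to -0.36 over the 4 scalings) at 8 h of BMH-21 and -0.51 (-0.51 to -0.23 over the 4 scalings) at 4 h of CX-5461. Fanca, Fancb and Fancc met the rule of 4 scalings in none of the 6 comparisons with control, and stood at -0.05, -0.21 and -0.39 on the deposited scale at 8 h of BMH-21 and at 0.30, -0.06 and -0.09 at 8 h of CX-5461. After centring these values were 0.16, -0.00 and -0.18, and 0.08, -0.27 and -0.30.

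The substrates of the core complex, Fancd2 and Fanci, and the helicase gene Brip1 gave 2 calls under all 4 scalings in the 6 comparisons with control. Those were the falls of Fancd2 and Brip1 at 4 h of BMH-21 (66.7% of the 3, against 36.7% of all genes). At 8 h of BMH-21 the direction of all 3 depended on scaling. Fancd2 read 6.30, 6.34 and 6.16 in the control libraries. BMH-21 libraries read 5.95, 6.20 and 6.14 for Fancd2 at 2 h, 6.04, 5.85 and 5.68 at 4 h and 6.09, 5.71 and 6.08 at 8 h. CX-5461 libraries read 6.09, 5.99 and 5.94 for Fancd2 at 2 h, 5.75, 6.10 and 5.94 at 4 h and 6.52, 6.46 and 6.50 at 8 h. Fancd2 thus lay below every control library at 4 and 8 h and overlapping the controls at 2 h of BMH-21. With CX-5461, Fancd2 lay below every control library at 2 and 4 h and above every control library at 8 h. Fancd2, whose protein is clamped on DNA with FANCI, fell, with a log2 change of -0.41 (SE 0.11, -0.41 to -0.20 over the 4 scalings, limma adjusted p = 6.5e-04) at 4 h of BMH-21, and its 8 h value of -0.31 ran up to 0.09 with scaling. With CX-5461 Fancd2 was at -0.34 at 4 h, called under 2 of the 4 scalings, and 0.23 (0.01 to 0.23 over the 4 scalings, called under 1 of them) at 8 h. Fanci read 6.07, 6.13 and 5.90 in the control libraries. BMH-21 libraries read 5.79, 6.03 and 5.94 for Fanci at 2 h, 5.93, 5.70 and 5.59 at 4 h and 5.86, 5.57 and 5.94 at 8 h. CX-5461 libraries read 5.89, 5.76 and 5.65 for Fanci at 2 h, 5.69, 5.93 and 5.85 at 4 h and 6.19, 6.15 and 6.10 at 8 h. Fanci thus lay overlapping the controls at 2, 4 and 8 h of BMH-21. With CX-5461, Fanci lay below every control library at 2 h and overlapping the controls at 4 and 8 h. Fanci, which shares 921 exonic bases with Polg on the other strand, stood at -0.24 (-0.24 to 0.13 over the 4 scalings) at 8 h of BMH-21 and 0.11 (-0.10 to 0.11 over the 4 scalings) at 8 h of CX-5461. Brip1 read 5.66, 5.69 and 5.42 in the control libraries. BMH-21 libraries read 5.22, 5.44 and 5.43 for Brip1 at 2 h, 5.27, 5.21 and 5.25 at 4 h and 5.35, 5.27 and 5.48 at 8 h. CX-5461 libraries read 5.49, 5.32 and 5.30 for Brip1 at 2 h, 5.34, 5.73 and 5.41 at 4 h and 5.75, 5.76 and 5.78 at 8 h. Brip1 thus lay below every control library at 4 h and overlapping the controls at 2 and 8 h of BMH-21. With CX-5461, Brip1 lay above every control library at 8 h and overlapping the controls at 2 and 4 h. Brip1, a BRCA1-bound helicase also known as FANCJ, fell, with a log2 change of -0.35 (SE 0.11, -0.35 to -0.14 over the 4 scalings, limma adjusted p = 0.004) at 4 h of BMH-21, was at -0.22 (-0.22 to 0.13 over the 4 scalings) at 8 h, and at 0.17 (-0.04 to 0.17 over the 4 scalings, called under none of them) at 8 h of CX-5461, where its place above the controls holds on the deposited scale and turns after centring.

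Among the 5 signalling genes the effector kinases went opposite ways, with Chek1 lower and Chek2 higher at 4 h of both inhibitors. Chek1 read 6.44, 6.48 and 6.24 in the control libraries. BMH-21 libraries read 6.26, 6.46 and 6.34 for Chek1 at 2 h, 6.11, 5.75 and 5.76 at 4 h and 5.35, 5.08 and 5.30 at 8 h. CX-5461 libraries read 6.34, 6.04 and 6.11 for Chek1 at 2 h, 5.62, 5.91 and 5.66 at 4 h and 5.78, 5.57 and 5.67 at 8 h. Chek1 thus lay below every control library at 4 and 8 h and overlapping the controls at 2 h of BMH-21. With CX-5461, Chek1 lay below every control library at 4 and 8 h and overlapping the controls at 2 h. Chek1, the effector kinase of ATR, fell, with a log2 change of -0.51 (SE 0.11, -0.51 to -0.30 over the 4 scalings, limma adjusted p = 2.3e-05) at 4 h and -1.14 (SE 0.11, -1.14 to -0.77 over the 4 scalings, limma adjusted p = 9.8e-18) at 8 h of BMH-21. With CX-5461 Chek1 fell, with a log2 change of -0.66 (-0.66 to -0.37 over the 4 scalings) at 4 h and -0.72 (SE 0.11, -0.93 to -0.72 over the 4 scalings, limma adjusted p = 1.6e-08) at 8 h, the largest fall of the 34 genes there on the deposited scale. Chek2 read 5.69, 5.65 and 5.46 in the control libraries. BMH-21 libraries read 5.46, 5.70 and 5.58 for Chek2 at 2 h, 6.39, 6.07 and 6.09 at 4 h and 6.15, 6.09 and 6.32 at 8 h. CX-5461 libraries read 5.67, 5.46 and 5.58 for Chek2 at 2 h, 5.96, 6.20 and 5.93 at 4 h and 5.79, 5.58 and 5.67 at 8 h. Chek2 thus lay above every control library at 4 and 8 h and overlapping the controls at 2 h of BMH-21. With CX-5461, Chek2 lay above every control library at 4 h and overlapping the controls at 2 and 8 h. Chek2, the effector kinase of ATM, rose by 0.58 (SE 0.11, 0.58 to 0.78 over the 4 scalings, limma adjusted p = 1.5e-06) at 4 h and 0.59 (SE 0.11, 0.59 to 0.98 over the 4 scalings, limma adjusted p = 7.6e-07) at 8 h of BMH-21. With CX-5461 it rose by 0.43 (SE 0.11, 0.43 to 0.70 over the 4 scalings, limma adjusted p = 3.4e-04) at 4 h, and at 8 h its value was 0.08 (-0.14 to 0.08 over the 4 scalings, called under 1 of them), the call being the lower value after centring.

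Atm read 6.47, 6.48 and 6.26 in the control libraries. BMH-21 libraries read 5.87, 6.19 and 6.11 for Atm at 2 h, 5.81, 5.59 and 5.45 at 4 h and 5.83, 5.19 and 5.70 at 8 h. CX-5461 libraries read 6.05, 6.00 and 5.94 for Atm at 2 h, 5.56, 6.03 and 5.87 at 4 h and 6.28, 6.14 and 6.18 at 8 h. Atm thus lay below every control library at 2, 4 and 8 h of BMH-21. With CX-5461, Atm lay below every control library at 2 and 4 h and overlapping the controls at 8 h. Atm, the break-sensing kinase, fell, with a log2 change of -0.79 (SE 0.12, -0.79 to -0.56 over the 4 scalings, limma adjusted p = 1.8e-09) at 4 h and -0.83 (-0.83 to -0.45 over the 4 scalings) at 8 h of BMH-21. CX-5461 lowered Atm, with a log2 change of -0.41 (SE 0.12, -0.41 to -0.22 over the 4 scalings, limma adjusted p = 0.0047) at 2 h and -0.58 (-0.58 to -0.29 over the 4 scalings) at 4 h, and its 8 h value was -0.21 (-0.42 to -0.21 over the 4 scalings, called under 3 of them). The 2 h call with BMH-21, -0.35, was lost without BMH-21 replicate 1 or control replicate 1 or 2. Atr read 6.24, 6.23 and 5.98 in the control libraries. BMH-21 libraries read 5.83, 6.12 and 5.98 for Atr at 2 h, 6.16, 5.96 and 5.81 at 4 h and 6.37, 5.97 and 6.36 at 8 h. CX-5461 libraries read 5.90, 5.80 and 5.77 for Atr at 2 h, 5.73, 6.16 and 5.95 at 4 h and 6.43, 6.39 and 6.40 at 8 h. Atr thus lay overlapping the controls at 2, 4 and 8 h of BMH-21. With CX-5461, Atr lay below every control library at 2 h, above every control library at 8 h and overlapping the controls at 4 h. Atr, the kinase of stalled forks, met the rule in no comparison with control. Its deposited change was 0.09 at 8 h of BMH-21, with 0.51 as the highest of the 4 scalings, and 0.26 (0.04 to 0.26 over the 4 scalings, called under 3 of them) at 8 h of CX-5461. Mdc1 read 7.88, 7.92 and 7.83 in the control libraries. BMH-21 libraries read 7.39, 7.73 and 7.65 for Mdc1 at 2 h, 7.16, 7.07 and 6.91 at 4 h and 7.53, 6.99 and 7.49 at 8 h. CX-5461 libraries read 7.60, 7.51 and 7.35 for Mdc1 at 2 h, 7.11, 7.47 and 7.30 at 4 h and 7.85, 7.85 and 7.81 at 8 h. Mdc1 thus lay below every control library at 2, 4 and 8 h of BMH-21. With CX-5461, Mdc1 lay below every control library at 2 and 4 h and overlapping the controls at 8 h. Mdc1 fell, with a log2 change of -0.83 (SE 0.11, -0.83 to -0.57 over the 4 scalings, limma adjusted p = 4.2e-11) at 4 h of BMH-21 and -0.59 (-0.59 to -0.22 over the 4 scalings) at 4 h of CX-5461. The earlier CX-5461 call, -0.38 at 2 h, was lost without CX-5461 replicate 3, and at 8 h of BMH-21 the value of -0.54 ran up to 0.04 with scaling. Mdc1 at 8 h of CX-5461 stood at -0.04 (-0.25 to 0.09 over the 4 scalings, called under 1 of them).

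BMH-21 was set against CX-5461 at 3 matched times and the same dose. The differences use no control library, but the control libraries enter the estimate of spread that all comparisons share. At 2 h 0 of the 34 genes were called by limma on the deposited scale, with 1 at an unadjusted p under 0.05, against 3.99% of all genes. Under all 4 scalings 0 were higher (2.36% of all genes) and 0 lower (1.51%). On the other 3 scalings 4 to 7 were called. A missing call does not show that the inhibitors act alike. At 4 h 4 genes were called (17.8% of all genes), 0 higher (9.2%) and 4 lower with BMH-21 (8.45%) under all 4 scalings, with 0 higher in limma at an unadjusted p under 0.05 on the deposited scale. The 4 were Fancf, at -0.55 (SE 0.15, -0.62 to -0.55 over the 4 scalings, limma adjusted p = 0.0048), Rad51c at -0.41 (-0.48 to -0.41 over the 4 scalings), Fance at -0.38 (-0.45 to -0.38 over the 4 scalings) and Rad54l at -0.31 (-0.38 to -0.31 over the 4 scalings). The calls of Rad51c, Fance and Rad54l at 4 h were lost without BMH-21 replicate 2, and that of Rad54l also without BMH-21 replicate 3 or CX-5461 replicate 2 or 3. Between inhibitors at 4 h, 18 to 22 members were called on the other 3 scalings.

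At 8 h, 30 of the 34 were called (79.2% of all genes), 12 were lower with BMH-21 under all 4 scalings (36.3% of all genes) and 1 was higher (11.9%). The share of members lower, 35.3%, was close to that of all genes. The median member was -0.53 on the deposited scale, where all genes had -0.48, and -0.10 after centring, where all genes had -0.06. On the deposited scale Fance differed most, at -1.22 (SE 0.11, -1.22 to -0.75 over the 4 scalings, limma adjusted p = 4.1e-19), followed by Rad51c at -1.19 (SE 0.11, -1.19 to -0.72 over the 4 scalings, limma adjusted p = 1.7e-17), Rad54l at -1.09 (SE 0.11, -1.09 to -0.62 over the 4 scalings, limma adjusted p = 5.7e-16) and Fancg at -1.05 (SE 0.11, -1.05 to -0.58 over the 4 scalings, limma adjusted p = 3.5e-15). Those 4 genes are a core subunit, a strand-exchange subunit, the strand-invasion motor and a core scaffold. The BMH-21 libraries all lay below the CX-5461 libraries for these 4 on the deposited scale, as they did for 32 of the 34 members. On that scale limma called 67.2% of all genes lower with BMH-21. Brca1 differed by -0.94 (SE 0.11, -0.94 to -0.47 over the 4 scalings, limma adjusted p = 2.0e-13), Brca2 by -0.88 (-0.88 to -0.41 over the 4 scalings), Palb2 by -0.79 (-0.79 to -0.31 over the 4 scalings) and Bard1 by -0.76 (-0.76 to -0.29 over the 4 scalings). The other 4 were Exo1, Rad54b, Blm and Mre11a, from -0.74 to -0.61. Chek2 was the 1 gene higher with BMH-21, by 0.51 (SE 0.11, 0.51 to 1.01 over the 4 scalings, limma adjusted p = 1.7e-05), and after centring its difference of 0.94 was larger in size than that of Fance (-0.79). On the deposited scale none of these 13 calls at 8 h was lost when any 1 of the 6 libraries was left out. Chek1, low with both inhibitors, had a difference of -0.43 on the deposited scale and, after centring, of -0.00.

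**Figure D4:**
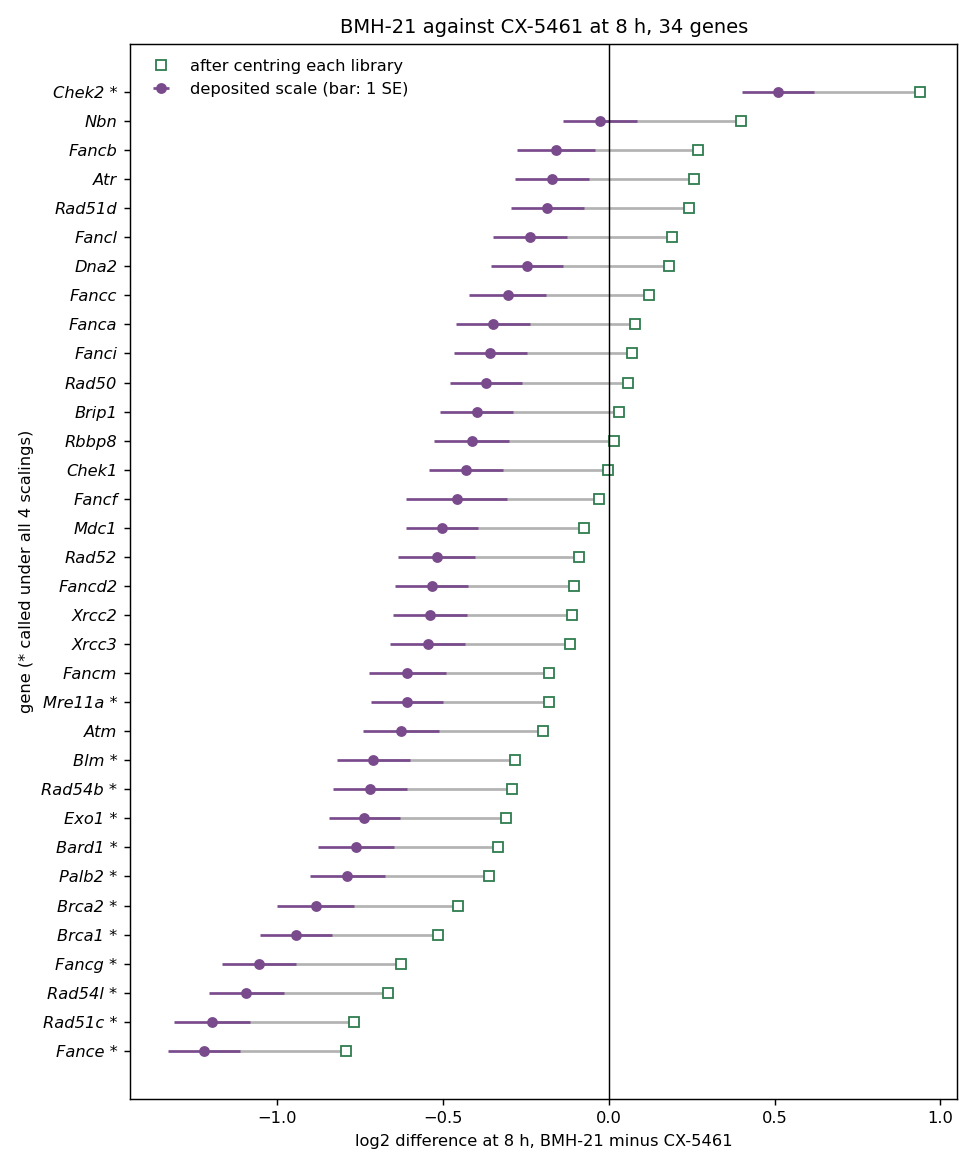
Log2 difference between BMH-21 and CX-5461 at 8 h (x axis) for each of the 34 genes (y axis), on the deposited scale with 1 SE (filled circles) and after centring each library (open squares). Fance, Rad51c and Rad54l lie lowest (-1.22, -1.19 and -1.09 on the deposited scale) and Chek2 highest (0.51).

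From 4 to 8 h the median member stood at -0.06 with BMH-21, where all genes had -0.14, and at 0.35 with CX-5461, where all genes had 0.34. With BMH-21 15 of the 34 were called between these times (56.4% of all genes), and under all 4 scalings 11 fell (29.1%) and 4 rose (18.1%). The falls that no single library undid were those of Rad54b (-0.69, -0.69 to -0.52 over the 4 scalings), Chek1 (-0.63, -0.63 to -0.46 over the 4 scalings), Rad52 (-0.62, -0.62 to -0.45 over the 4 scalings), Xrcc3 (-0.51), Fance (-0.50), Fancl (-0.47), Mre11a (-0.47), Fancc (-0.44), Xrcc2 (-0.38) and Exo1 (-0.36). The fall of Brca2 (-0.38) was lost without replicate 2 of BMH-21 at 8 h. Fancf rose back by 0.64 (SE 0.15, 0.58 to 0.82 over the 4 scalings, limma adjusted p = 1.7e-04). The rises of Dna2 and Atr were lost without replicate 2 or 3 of BMH-21 at 4 h or replicate 1 or 3 at 8 h, and that of Mdc1 without replicate 3 at 4 h or replicate 1 or 3 at 8 h. With CX-5461 22 were called (63.7% of all genes), 7 rose under all 4 scalings (24.7%) and 1 fell (4.85%). The 7 were Rad51c (0.90, SE 0.11, 0.52 to 0.90 over the 4 scalings, limma adjusted p = 3.5e-11), Fancg (0.88, SE 0.11, 0.50 to 0.88 over the 4 scalings, limma adjusted p = 3.6e-11), Brca1 (0.63, 0.26 to 0.63 over the 4 scalings), Rad54l (0.61, 0.24 to 0.61 over the 4 scalings), Fancd2 (0.57, 0.19 to 0.57 over the 4 scalings), Blm (0.56, 0.19 to 0.56 over the 4 scalings) and Mdc1 (0.55, 0.17 to 0.55 over the 4 scalings), and the fall was that of Chek2 (-0.35, -0.73 to -0.35 over the 4 scalings). On the deposited scale each of these 8 calls held without any 1 of the 6 libraries. Under the rule of 4 scalings the higher calls then ran from 6 to 8.

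Gene models were taken from GENCODE M21 on GRCm38, the assembly that the submitters' processing notes call mm10. The genes span 1.7 to 212.2 kb with a median of 41.2 kb, and Fancf is the 1 gene with a single exonic block. Per kilobase of exon, the mean control level on the linear deposited scale ran from 1.79 ± 0.19 (SD, n = 3) for Fancc to 31.6 ± 1.01 for Mdc1. Mdc1 and Rad50 (31.4) led, and their control libraries overlapped; Brca1 (24.4), Nbn (19.7) and Chek1 (18.1) came next. At the low end, Atr (3.01), Rad52 (2.88) and Fancc followed Fancf (3.70) and Rbbp8 (3.47). By the same measure Chek1 (chr9:36708482-36727065) had 18.1, Fance (chr17:28313519-28326572) 10.2, Rad51c (chr11:87376645-87404954) 6.59 and Rad54l (chr4:116094264-116123690) 7.48. Across the 34 genes, Spearman's rho of the change at 8 h of BMH-21 with gene span was 0.08 and with control level -0.21, given as a description of genes measured in the same libraries. Rad54l shares 1184 exonic bases with Lrrc41, Fanca 920 with Zfp276, and Fancc 1558 with other annotated transcripts, all on the other strand. Of the 6 genes with an E2F-type promoter sequence, Bard1, Brca2, Rad51c, Fancg and Mdc1 fell and Chek2 rose at 4 h of either inhibitor. Of the 20 members with a promoter but no such match, 10 fell at 4 h of BMH-21 and 9 at 4 h of CX-5461, beside 36.7% and 33.1% of all genes.

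Other genes of the pathway were followed in lists that share no member with the 34. Of 46 further recombination and Fanconi genes, 27 fell (58.7%, against 36.7% of all genes) and 2 rose (4.35%, against 21%) at 4 h of BMH-21, and 28 fell at 8 h (60.9%, against 40.4%). With CX-5461 19 fell (41.3%, against 33.1%) and 1 rose (2.17%, against 18.7%) at 4 h, and 5 fell (10.9%, against 13.6%) and 3 rose (6.52%, against 22.9%) at 8 h. The largest falls at 8 h of BMH-21 were those of Usp1, the protease that removes ubiquitin from FANCD2 (-1.17), and Faap24, the partner of FANCM (-1.17), with limma adjusted p of 4e-19 and 1.7e-17. At 8 h of CX-5461 the same genes stood at -0.29 and -0.34. Of 17 further damage-signalling genes 15 fell at 8 h of BMH-21 (88.2%) and 6 at 8 h of CX-5461 (35.3%), beside the same 40.4% and 13.6% of all genes, led at 8 h of BMH-21 by Tlk1 (-1.24) and Hus1 (-1.14). Of 14 end-joining genes 6 fell (42.9%, near the 40.4% of all genes) and 2 rose (14.3%, against 23%) at 8 h of BMH-21, among them Nhej1, which rose by 1.35, Poll at 0.45, Xrcc4 at -1.35 and Lig3 at -1.17. Nhej1 was at 0.89 at 8 h of CX-5461. Of 30 S phase replication genes 24 fell at 8 h of BMH-21 (80%, against 40.4% of all genes) and 9 at 8 h of CX-5461 (30%, against 13.6%), with the largest BMH-21 falls in Ccne1 (-1.50) and Pold1 (-1.49). Of the 10 stem cell markers, 8 fell at 8 h of BMH-21 (80%, against 40.4% of all genes), most of all Esrrb (-2.28) and Zfp42 (-2.21). At 8 h of CX-5461 5 fell (50%, against 13.6%) and 1 rose (10%, against 22.9%). Their part in the members' changes was not tested.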

How the data were processed

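Poly(A) RNA-seq libraries were compared, and members and gene lists were chosen with earlier results of these data known. Per the submitters' processing notes, reads were handled with Trim Galore 0.5.0, TopHat2 2.1.1, R 4.0.5, DESeq2 1.30.1, edgeR 3.32.1 and limma 3.46.0 on mm10; roles and settings are not given in the sources used here. The deposited table holds log2 values normalized by the authors with voom, per the file name and values. Taking the smallest value of a library as 0 reads plus an offset of 0.5 gave whole reads throughout; the authors' library factors (0.832 to 1.375) differ from median-ratio factors (0.941 to 1.107), and their origin is not stated. Genes above a log2 of 0 in at least 3 libraries were tested (14666 of 20900, 6234 set aside) with limma 3.58.1 in R 4.3.3, 1 mean per group over all 21 libraries, with a variance trend and two-sided tests adjusted over all tested genes in each of 11 comparisons. The prior for the variance had 111.5 degrees of freedom on the deposited scale and 8.5 after centring, beside 14 residual ones. On the deposited scale the variance of each gene was therefore drawn mostly from the trend over all genes. Named genes were those set per role plus the largest 3 changes each way at 8 h whose groups did not overlap; Fancf and Palb2 were added after their values were seen. On simulated data for BMH-21 8 h against control (14666 genes), 133 of 200 changed genes were recovered, 11 of 67 at an absolute log2 change of 0.3 and 56 of 67 at 0.6. Same-numbered replicates did not deviate together (correlations -0.25 to 0.09). Alternatives covered scaling, filter, offset, voom weights, samples fitted, the replicate block and left-out libraries.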

Additional observations from a re-analysis of the deposited data

Results flagged for a closer look

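The following differences between time points or between inhibitors passed a limma test of the difference itself under all 4 scalings. On the deposited scale they also passed with each of the 6 libraries left out in turn. They are given on the deposited log2 scale and are not explained here. Between 4 and 8 h of BMH-21, some genes of strand exchange were lower at 8 h: Rad54b by -0.69, Rad52 by -0.62, Xrcc3 by -0.51 and Xrcc2 by -0.38. Under all 4 scalings 5 of the 11 such genes were lower (45.5%, against 29.1% of all genes) and 6 were neither higher nor lower. The 5 include Brca2, whose call was lost without 1 library. Of all members 32.4% were lower and 11.8% higher, beside 29.1% and 18.1% of all genes. Among the nucleases, Mre11a differed by -0.47 and Exo1 by -0.36. In the Fanconi core complex, Fance differed by -0.50, Fancl by -0.47 and Fancc by -0.44, while Fancf differed by 0.64 in the other direction. The kinase gene Chek1 differed by -0.63.

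Between 4 and 8 h of CX-5461, most of the genes that differed were higher at 8 h, as was so among all genes. Under all 4 scalings 20.6% of members were higher and 2.94% lower, beside 24.7% and 4.85% of all genes. Rad51c differed by 0.90, Fancg by 0.88, Brca1 by 0.63, Rad54l by 0.61, Fancd2 by 0.57, Blm by 0.56 and Mdc1 by 0.55. Chek2 differed by -0.35. Between the inhibitors at 8 h, the differences over 1 in size on the deposited scale were -1.22 for Fance, -1.19 for Rad51c, -1.09 for Rad54l and -1.05 for Fancg. Chek2, at 0.51 on that scale, had 0.94 after centring, where Fance had -0.79. Each value shares its libraries with the others of the same comparison.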

How the results depend on the processing

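Scaling moved these results most, and the cause of the deposited factors was not tested. The number of members called changed from 6 to 12, 11 and 10 at 2 h of BMH-21 under centring, median-ratio factors and quantile normalization, from 9 to 26, 23 and 24 at 8 h of CX-5461, from 0 to 5, 7 and 4 between inhibitors at 2 h, from 4 to 22, 18 and 22 between them at 4 h, and from 15 to 27 and 26 between 8 and 4 h of BMH-21 under the last pair. Without a filter, 7 members were called at 2 h of CX-5461 in place of 13. Under the same 3 scalings the median member became -0.36, -0.22 and -0.33 at 8 h of BMH-21, -0.0806, -0.0443 and -0.0634 at 2 h of CX-5461, -0.10, -0.0528 and -0.11 between inhibitors at 8 h, and -0.0251, -0.0167 and -0.0016 between 8 and 4 h of CX-5461. With median-ratio factors and quantile normalization it was -0.16 and -0.14 at 4 h of BMH-21 and -0.11 and -0.12 at 4 h of CX-5461. It was -0.24 under centring at 8 h of CX-5461, and under median-ratio factors -0.0384 between inhibitors at 2 h and 0.11 between 8 and 4 h of BMH-21.

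Values called under the deposited scale or the alternative turned direction at 8 h of BMH-21 under median-ratio factors (Rbbp8 0.062, Fancd2 0.0508, Fanci 0.11, Brip1 0.13) and quantile normalization (Rbbp8 0.0331, Fancd2 0.0938, Fanci 0.13, Mdc1 0.0351), and at 8 h of CX-5461 under centring (Brca1 -0.17, Fanci -0.10, Chek2 -0.14). Values called under neither also turned there, among them Rbbp8 to -0.0981, Fance to -0.13 and Brip1 to -0.0420.

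Leaving out 1 library at a time gave 3 to 7 calls at 2 h of BMH-21, 5 to 17 at 2 h of CX-5461 and 1 to 7 between inhibitors at 4 h (1 without BMH-21 replicate 2). Under the rule of 4 scalings, lower calls ran from 3 to 7, 3 to 6 and 1 to 7 in those comparisons, and higher calls from 1 to 4 between 8 and 4 h of BMH-21. Under that rule, no filter gave 1 higher call at 8 h of CX-5461 in place of 4, a fit of only the groups compared gave 5 lower calls there in place of 3, and the replicate block and the fit of only the groups compared each gave 2 higher calls between 8 and 4 h of BMH-21 in place of 4. Of 147 gene values named in the text, the replicate block kept the call in 142, although replicate numbers did not pair the libraries. In the simulation, with 3 libraries a group, 11 of 67 changes of 0.3 were recovered. It changed 200 of 14666 genes, whereas 81.5% of genes were called at 8 h of BMH-21. Recovery at that size in the real data is therefore not known from it. A missing call near 0.3 does not show that a gene was unchanged.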
